A study of Mus musculus with 35 samples.

Results

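The genes described here encode the proteins of the mitochondrial ribosome, in quadriceps muscle of 2-month-old female mice. They were chosen by symbol: every array row annotated to exactly 1 gene whose name starts with Mrpl or Mrps and a number, without pseudogenes, and for a gene with several rows the row with the highest mean over 35 arrays. This gave 77 of 19938 genes, 48 of them named Mrpl and 29 named Mrps, for the large and the small subunit, spread over 17 chromosomes. RefSeq lists 78 protein-coding genes with such names; the row of the remaining gene, Mrpl53, is annotated to 2 symbols and was left out. The study asked how muscle that lacks myostatin compares with muscle exposed to a soluble activin type IIB receptor (ActRIIB-Fc), a decoy that binds myostatin and related ligands. Its 4 classes of mice were controls, Mstn-null mice, mice given 1 dose and mice given 4 doses of ActRIIB-Fc. An original experiment had 3 mice per class. An independent follow-up used 8 Mstn-null mice and 5 of each other kind. One array was run per mouse. Strain, allele, route and amount per dose were not given in the labels.

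Mitochondria keep a small genome that encodes a few membrane subunits of the respiratory chain and of ATP synthase, and they translate it on ribosomes of their own. All proteins of these ribosomes are encoded in the nucleus, made in the cytosol and imported. Many have counterparts in bacterial ribosomes, while others are found only in mitochondria. Oxidative muscle fibres hold more mitochondria than fast glycolytic fibres.

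Mstn itself was measured first. In experiment 1 its log2 value was 6.77, 7.60 and 7.68 in controls and 5.78, 5.95 and 6.69 in Mstn-null muscle. In experiment 2 controls lay between 9.84 and 10.21 (median 10.02) and Mstn-null arrays between 6.29 and 7.84 (median 7.31), so the groups did not overlap in either experiment. The deposited log2 values were on different levels in the experiments: array medians ranged from 4.39 to 4.52 in experiment 1, and the range in experiment 2 was 6.06 to 6.27. Levels were therefore compared only within an experiment, and tests held the experiment as a term. The spread of values within an array, as its interquartile range, was 2.56 ± 0.06 (SD, n = 5) in controls of experiment 2 and 2.28 ± 0.12 (SD, n = 8) in Mstn-null arrays. It was lowest in Mstn-null arrays 6, 7 and 8 of experiment 2, at 2.14, 2.15 and 2.19. A narrower range lowers bright genes against the median gene, and all but 1 of the 77 genes were brighter than the median gene, with mean log2 values from 5.74 to 10.17. Counts are given below with and without these 3 arrays and with the range as a covariate.

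The mean log2 level over the 77 genes was lower in Mstn-null muscle in both experiments. In experiment 1 it was 6.81, 6.88 and 6.96 in controls, 6.50, 6.63 and 6.74 in Mstn-null mice, 6.75, 6.80 and 6.87 after 1 dose, and 6.53, 6.79 and 6.80 after 4 doses. All 3 Mstn-null arrays and all 3 arrays after 4 doses lay below all 3 controls there, and 1 array after 4 doses lay among the Mstn-null arrays. In experiment 2 the 5 controls lay between 8.39 and 8.52 and the 8 Mstn-null arrays between 7.71 and 8.41 (median 8.06). Only the highest Mstn-null array, replicate 5, reached above the lowest control, and it also lay above the lowest arrays of both treated groups. The 5 arrays after 1 dose lay between 8.37 and 8.65 and the 5 after 4 doses between 8.30 and 8.54, overlapping the controls in that experiment. In whole muscle, a smaller share of mitochondria-rich fibres and less RNA per fibre cannot be told apart.

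**Figure D1:**
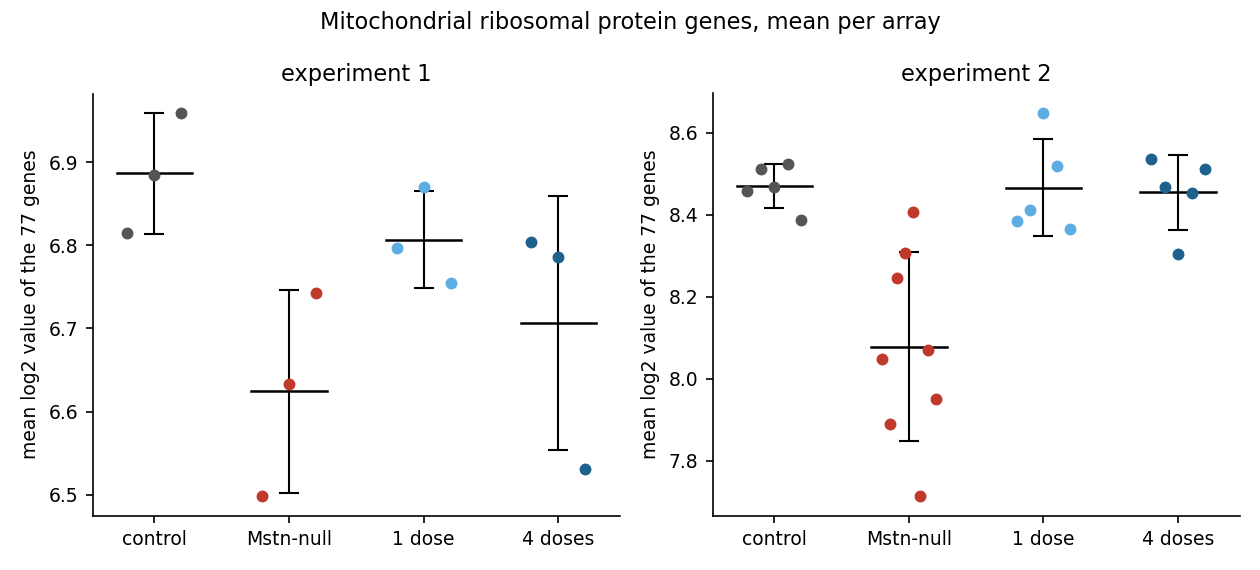
Mean log2 value over the 77 mitochondrial ribosomal protein genes for each array, by class and experiment, with group mean and SD. The Mstn-null group has the lowest mean in both experiments, with arrays from 7.71 to 8.41 in experiment 2 against 8.39 to 8.52 in controls. In experiment 1 the arrays after 4 doses (6.53 to 6.80) also lie below the controls and overlap the Mstn-null arrays, while in experiment 2 both ActRIIB-Fc groups overlap the controls.

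Comparing Mstn-null with control muscle, 49 of the 77 genes were lower and 3 were higher at an adjusted p under 0.05 (limma, both experiments, Benjamini-Hochberg over 19938 genes). Among all genes tested, 16.4% were called lower and 25.4% higher. The median log2 change was -0.34 for the 77 genes and 0.09 for all genes, and 69 of the 77 changes were below 0. The fall was small for most genes and exceeded 2-fold for 3 of them, Mrps33, Mrpl50 and Mrpl47. Leaving out Mstn-null arrays 6, 7 and 8 of experiment 2 left 39 lower and 1 higher (12.7% and 15.7% of all genes). This setting was added after the values were seen. It left out arrays with a range under 2.2, among Mstn-null arrays of experiment 2 only, and replicate 2, at 2.22, was kept. With the interquartile range of each array as a covariate the median change was -0.14 and 5 genes were lower and 0 higher (1.36% and 1.63% of all genes): Mrpl33, Mrpl39, Mrpl41, Mrpl9 and Mrps23. At 6.49% of the 77 genes, that is far fewer than without the covariate. How much of the fall the range accounts for was not tested.

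Mrps33, a small-subunit protein without a bacterial counterpart, fell most. Its log2 level in experiment 1 was 6.76, 6.87 and 6.96 in controls and 5.78, 6.11 and 6.32 in Mstn-null muscle. In experiment 2 it was 8.72, 8.82, 8.84, 8.92 and 8.97 in controls, and in Mstn-null muscle the lowest, median and highest values were 6.72, 7.39 and 8.64. Mstn-null and control arrays did not overlap in either experiment, and the fitted log2 change was -1.18 ± 0.19 (SE), 2.27-fold lower (limma, adjusted p = 2.3e-05). Mstn-null arrays differed widely among themselves, with an SD of 0.69 against 0.09 in controls. A separate row for Mrps33 gave a log2 change of -1.07.

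Mrpl50, a large-subunit protein found only in mitochondria, had the second largest fall. Experiment 2 controls were at 8.66, 8.72, 8.89, 8.89 and 9.10, and Mstn-null arrays ran from 6.79 over a median of 7.51 to 8.71. The highest Mstn-null array, replicate 5, overlapped the controls, and the log2 change was -1.10 ± 0.17 (SE; limma, adjusted p = 1.85e-05). Mrpl47, the counterpart of bacterial L29, changed by -1.08 ± 0.18 (SE; limma, adjusted p = 3.1e-05) on the row used. Its other row, of similar mean level, changed by 0.15 (limma, adjusted p = 0.173), so the rows of Mrpl47 disagree and its fall is uncertain. The 7 other genes with 2 rows had the same sign on both.

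Mrpl33, a small protein of the large subunit with a bacterial counterpart, had the smallest p of all 77 genes. Its log2 level in experiment 1 was 5.43, 5.96 and 5.99 in controls and 4.83, 4.85 and 5.06 in Mstn-null muscle. In experiment 2 controls were at 7.20, 7.20, 7.28, 7.31 and 7.35, and Mstn-null arrays ran from 5.82 over a median of 6.44 to 7.16. No Mstn-null array reached a control in either experiment, and the log2 change was -0.85 ± 0.12 (SE; limma, adjusted p = 7.56e-06). It remained lower with the range as a covariate (-0.55; limma, adjusted p = 0.0261).

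Mrps23, a small-subunit protein without a bacterial counterpart, was at 7.72, 7.74 and 7.81 in controls of experiment 1 and at 7.12, 7.28 and 7.49 in Mstn-null muscle. Controls of experiment 2 were at 9.52, 9.57, 9.60, 9.62 and 9.73, and Mstn-null arrays ran from 8.13 over 8.67 to 9.36. The groups were apart in both experiments, with a log2 change of -0.77 ± 0.11 (SE; limma, adjusted p = 8.72e-06). Mrpl41, a large-subunit protein found only in mitochondria, changed by -0.77 and Mrpl9, which has a bacterial counterpart, by -0.79. Mrps31, a small-subunit protein found only in mitochondria, also changed by -0.79, and the large-subunit protein Mrpl39 by -0.60. All 4 had adjusted p under 0.05 in limma.

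For 10 genes, no Mstn-null array reached any control of the same experiment, in both experiments (13% of the 77; 2.57% of all genes): Mrpl18, Mrpl21, Mrpl33, Mrpl44, Mrpl46, Mrps14, Mrps23, Mrps31, Mrps33 and Mrps35. Mrpl18, among the 3 brightest of the 77 genes in controls with Mrps15 and Mrps21, changed by -0.89. Mrps15 and Mrps21 had log2 changes of 0.02 and -0.28 and did not pass (limma, adjusted p = 0.877 and 0.0919). Among the 3 dimmest, Mrps27 fell (-0.32), while Mrpl22 and Mrps11 had log2 changes of -0.18 and -0.01 and were not called. The size of the change was thus unequal among genes of like brightness.

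**Figure D2:**
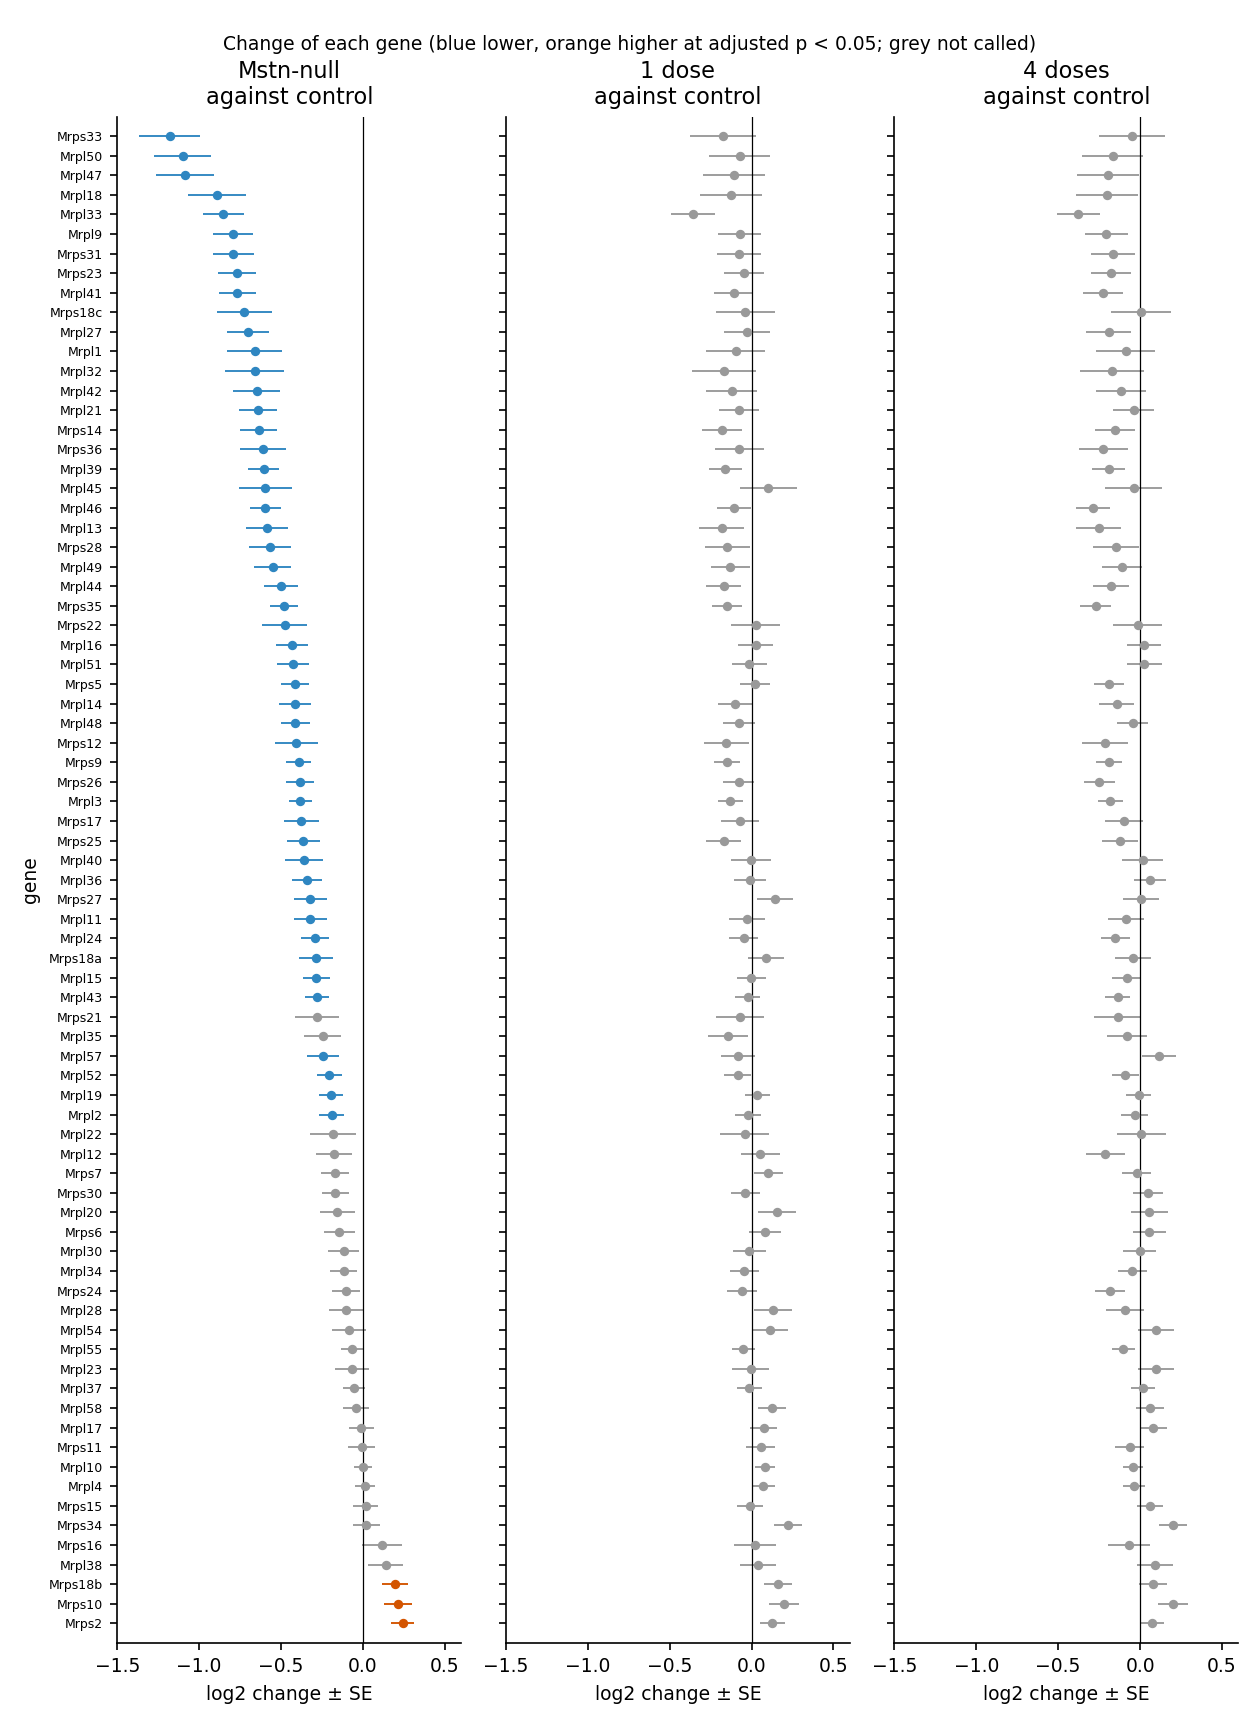
Log2 change ± SE from limma for each of the 77 genes against control, for Mstn-null mice, 1 dose and 4 doses; blue is lower and orange higher at an adjusted p under 0.05. In Mstn-null muscle 49 genes are lower and 3 higher, and in both ActRIIB-Fc panels all 77 genes are grey. The 3 comparisons share the control arrays.

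The 3 genes called higher all encode small-subunit proteins. Mrps2, the counterpart of bacterial S2, was at 7.95, 8.06, 8.07, 8.09 and 8.19 in controls of experiment 2 and ran from 8.16 over 8.49 to 8.65 in Mstn-null muscle. In experiment 1 its groups overlapped and the change was -0.03, so the combined change of 0.24 ± 0.07 (SE; limma, adjusted p = 0.00692) rests on experiment 2. Mrps10 changed by 0.21 (limma, adjusted p = 0.044) and Mrps18b by 0.19 (limma, adjusted p = 0.0443), each with the same sign in both experiments. Leaving out 1 array ended the call of Mrps10 in 11 of 35 cases and that of Mrps18b in 13 of 35, and that of Mrps2 in 0. With arrays centred on their medians, which moved the median of all genes from 0.09 to -0.02, none of the 3 passed, and 54 of the 77 genes were lower and 0 higher (22.1% and 7.4% of all genes).

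**Figure D3:**
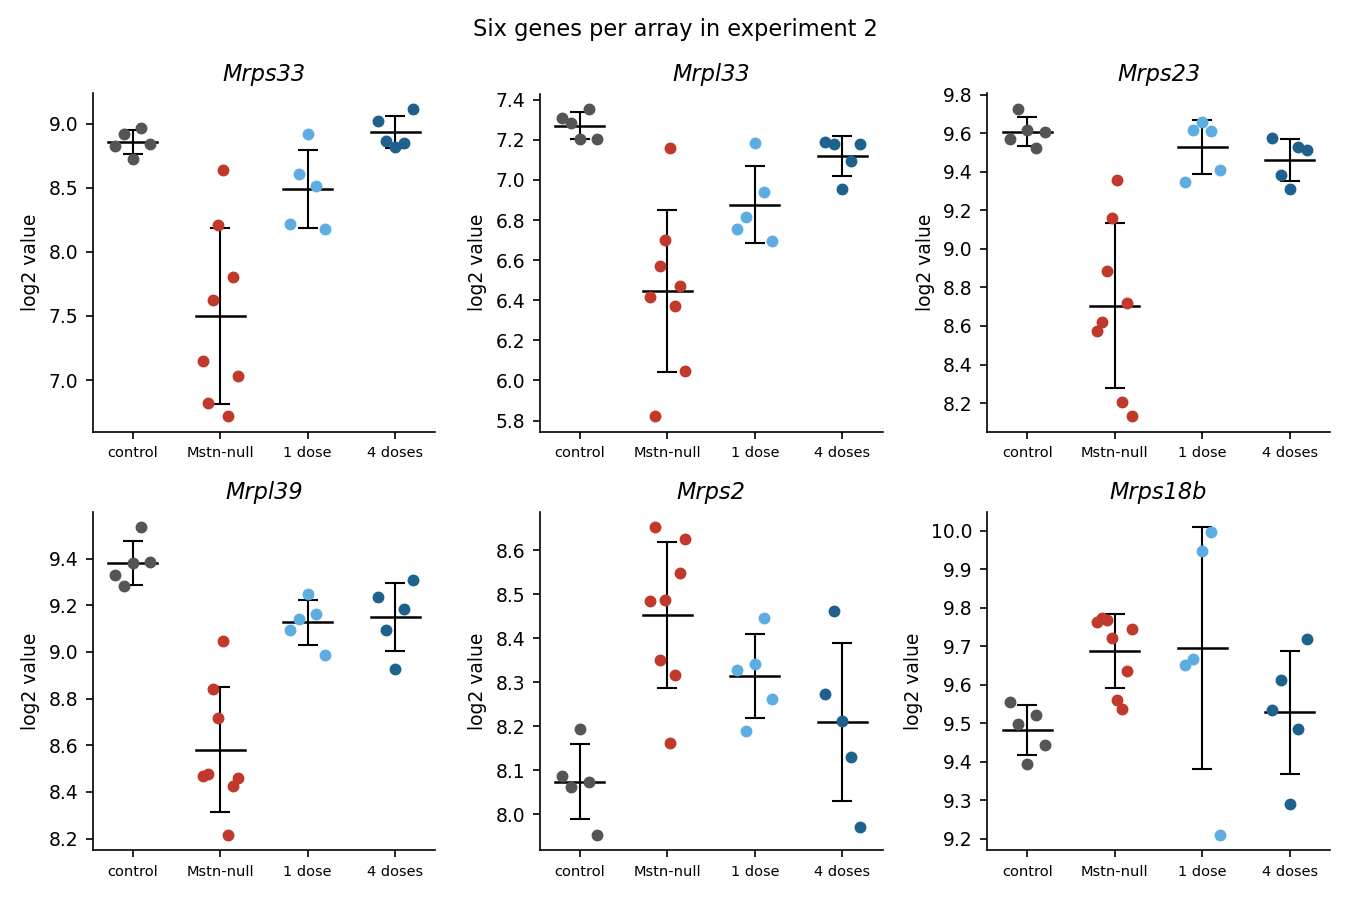
Log2 values per array in experiment 2 for 6 genes (points), with group mean and SD. Mrps33, Mrpl33, Mrps23 and Mrpl39 are lowest in Mstn-null muscle, where the 8 arrays also spread most (Mrps33 from 6.72 to 8.64); Mrps2 and Mrps18b are higher there than in controls.

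Promoter sequence was compared next because NRF1, GABP (an ETS-family factor also called NRF2), YY1 and ERR alpha are known activators of nuclear genes for mitochondrial proteins. RefSeq windows (GRCm38.p6) from 250 bases before to 50 after the gene start were given for 68 of the 77 genes, in 74 windows. On either strand, the ETS core CCGGAAG occurred in 33.8% of them, against 8.86% of all 32851 promoter windows and 11.6% of those of protein-coding genes. The YY1 motif AANATGGCG occurred in 14.9%, against 2.38% of all windows and 3.12% of protein-coding ones. The NRF1 motif GCATGCGC occurred in 10.8%, against 2.71% and 3.52%. The Sp1 motif GGGCGG was in 52.7%, against 35.7% and 46.2%, and the Myc motif CACGTG in 9.46%, against 7.15% and 7.84%. The ERR alpha motif TNAAGGTCA was in 0 of 74 windows, against 1.28% and 1.03%. The ETS core was in 18 of 44 genes called lower and 7 of 24 not called lower, the NRF1 motif in 4 of 44 and 4 of 24, and the YY1 motif in 5 of 44 and 6 of 24. The following windows are shown because they hold NRF1 letters in 3 genes that fell (Mrpl33, Mrpl9 and Mrpl39) and in 1 that rose (Mrps18b), and the ETS core in Mrpl18, which fell and has no NRF1 match; capitals mark NRF1 (GCATGCGC or its reverse complement) and ETS (CCGGAAG) matches.
Mrpl33, chr5:31613909-31613976, plus strand: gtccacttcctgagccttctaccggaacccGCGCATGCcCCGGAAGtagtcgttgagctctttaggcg
Mrpl9, chr3:94443278-94443345, plus strand: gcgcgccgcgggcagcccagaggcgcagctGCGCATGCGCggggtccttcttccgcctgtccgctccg
Mrpl39, chr16:84735332-84735399, minus strand: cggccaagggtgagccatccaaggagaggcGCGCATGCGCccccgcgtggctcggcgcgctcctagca
Mrpl18, chr17:12916295-12916341, minus strand: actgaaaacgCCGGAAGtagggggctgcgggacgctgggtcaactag
Mrps18b, chr17:35916626-35916690, minus strand: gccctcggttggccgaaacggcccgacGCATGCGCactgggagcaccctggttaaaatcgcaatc

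In Mrpl33 the NRF1 and ETS letters lay 1 base apart, with the NRF1 letters starting at position -12 from the gene start. In Mrpl9 and Mrpl39 the full palindrome matched on both strands, starting at positions -28 and -125. Mrps18b has a second NRF1 match at position 28 and an ETS match at position 43, outside the stretch shown. A match in these windows is a description of letters and not a binding site. Position gave 1 further pair: Mrpl46 on the minus strand and Mrps11 on the plus strand of chromosome 7 start 41 bases apart, at 78783089 and 78783131, and point away from each other. Mrpl46 fell by 0.60 on the log2 scale (limma, adjusted p = 2.74e-05), whereas Mrps11 had a change of -0.01 (limma, adjusted p = 0.943).

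By role, 33 of 50 large-subunit genes were lower and 0 higher in Mstn-null muscle, with a median change of -0.31. Of 26 small-subunit genes, 15 were lower and 3 higher, with a median of -0.37. Proteins found only in mitochondria were lower in 22 of 28 genes (median -0.42) and those with a bacterial counterpart in 25 of 46 (median -0.28). In the small subunit this was 8 of 9 against 7 of 16. These are counts of named genes, and the difference between the classes was not tested.

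Some names mislead about the place of the protein. Mrps18a and Mrps30 are named for the small subunit but sit in the large one; Mrps18a was lower (-0.29; limma, adjusted p = 0.0261) and Mrps30 was not called (-0.17; limma, adjusted p = 0.103). Mrps18b, a second paralogue of bacterial S18, is a true small-subunit protein and was higher, whereas the direct counterpart of S18, Mrps18c, was lower (-0.72). Mrps36 is a component of the 2-oxoglutarate dehydrogenase complex of the citric acid cycle and not of the ribosome; it changed by -0.61 ± 0.14 (SE; limma, adjusted p = 0.00113).

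Because brighter genes as a whole were lower in Mstn-null muscle, the 77 genes were set beside genes of similar mean level, in 10 bins of equal size. In bin 7, 71.4% of the ribosomal protein genes were lower against 23.5% of all genes of the bin. In bin 8 it was 75% against 31% and in bin 9 72% against 38.6%. In bin 10, which holds the brightest genes, the shares were close, at 45.5% and 43.6%. Weighted to the same levels, 35.6% of all genes would be lower and the median change would be -0.11. Of the 77 genes, 59 had a change below that of the median gene of their bin, and the median of these differences over all 77 was -0.23. After cyclic loess normalization within each experiment, which removes level-dependent shifts between arrays, 42 of the 77 were lower and 6 higher (15.6% and 11.8% of all genes). The median change was then -0.25, against 0.01 for all genes.

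**Figure D4:**
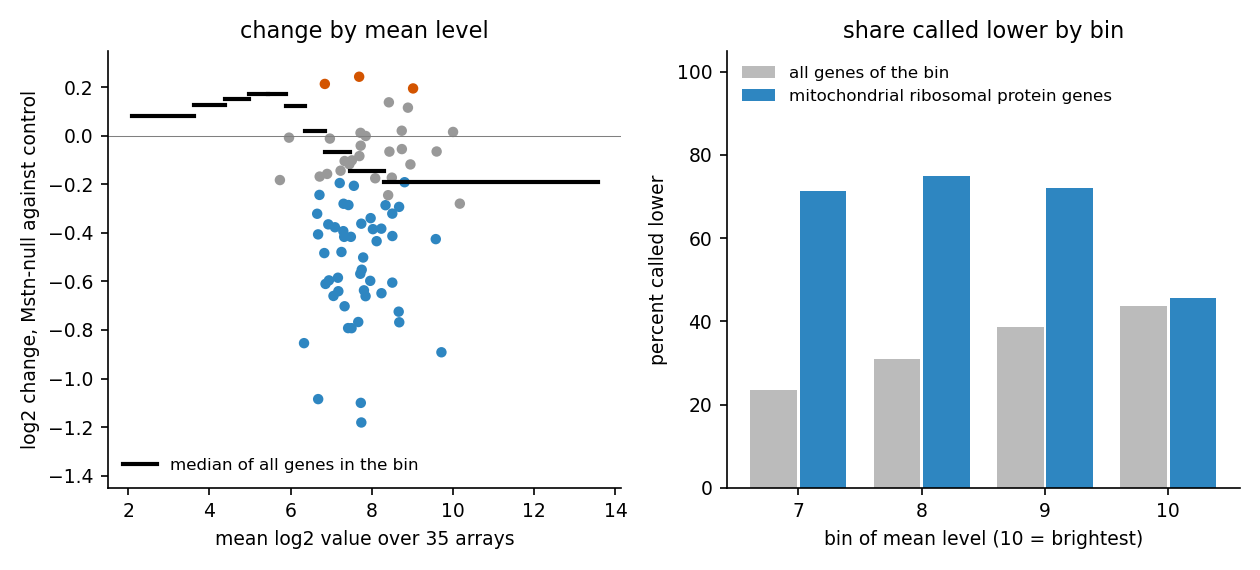
Left, log2 change in Mstn-null muscle against mean log2 value for the 77 genes (blue lower, orange higher, grey not called), with the median of all genes in each of 10 bins as black bars. Right, percent called lower in bins 7 to 10 for all genes and for the ribosomal protein genes: 71.4 against 23.5 in bin 7 and 45.5 against 43.6 in bin 10.

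The fall was seen in both experiments but was called mostly in the larger one. With each experiment fitted alone, 4 genes were lower and 0 higher in experiment 1 (1.99% and 0.406% of all genes): Mrpl33, Mrpl41, Mrpl9 and Mrps31. In experiment 2, 46 were lower and 3 higher (16.6% and 27.4% of all genes). The median change was -0.26 in experiment 1 and -0.37 in experiment 2. Changes were below 0 in both experiments for 55 of the 77 genes and for 22.3% of all genes. Every Mstn-null array lay below every control for 31 genes in experiment 1 (13.9% of all genes) and for 18 in experiment 2 (5.52% of all genes). Only Mrpl32, a large-subunit protein whose processing by a mitochondrial protease is known to govern ribosome assembly, differed between the experiments (limma interaction; 0.321% of all genes were called in this direction and 1.35% in the other). Its level in experiment 1 was 5.58, 5.71 and 5.84 in controls and 5.62, 5.76 and 6.43 in Mstn-null muscle, overlapping. In experiment 2 it was 8.09, 8.12, 8.14, 8.33 and 8.38 in controls, and Mstn-null arrays ran from 6.44 over 7.25 to 7.67, all below. The changes of 0.23 and -1.05 differed by -1.28 ± 0.30 (SE; limma, adjusted p = 0.0289). No gene was called in this test when any 1 of 4 arrays was left out: control replicate 2 or Mstn-null replicate 1 of experiment 1, or control replicate 4 or 5 of experiment 2. Without Mstn-null replicate 5 of experiment 2, 6 genes were called.

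After 1 dose of ActRIIB-Fc, 0 of the 77 genes were called in either direction by limma, and 1 was lower and 2 higher at an unadjusted p under 0.05 (4.05% and 7.87% of all genes). Among all genes, 0.572% were called lower and 0.542% higher. The median log2 change was -0.04, against 0.02 for all genes. Mrpl33 had the smallest p. After 1 dose its level was 5.33, 5.37 and 5.79 in experiment 1 and 6.70, 6.75, 6.82, 6.94 and 7.18 in experiment 2. The treated arrays of experiment 2 were all below the controls given above (as for 2.94% of all genes), those of experiment 1 overlapped them, and the change was -0.36 ± 0.13 (SE; limma, adjusted p = 0.243). Mrpl13 and Mrps14, the next lowest, each had a change of -0.18 and were not called. On the other side, Mrps34, a mitochondria-only protein of the small subunit, had a change of 0.22, Mrps10 of 0.20 and Mrps18b of 0.16. With array weights, 2 genes passed, Mrpl33 lower and Mrps10 higher, each 1.3% of the 77, where 3.13% of all genes were lower and 5.61% higher.

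After 4 doses, again 0 of 77 genes were called by limma, with 7 lower and 2 higher at an unadjusted p under 0.05. Among all genes, 1.23% were called lower and 1.91% higher, while 6.04% were lower and 8.6% higher at an unadjusted p under 0.05, beside 9.09% and 2.6% of the 77. The median change was -0.08, against 0.02 for all genes. Mrps35, a small-subunit protein found only in mitochondria, had the smallest p, with a change of -0.27 ± 0.09 (SE; limma, adjusted p = 0.115). Mrpl33 was at 4.79, 5.03 and 5.30 in experiment 1 and at 6.95, 7.09, 7.18, 7.18 and 7.19 in experiment 2. In experiment 1 the treated arrays were all below the controls for 12 of the 77 genes (15.6%, against 7.8% of all genes). Mrpl33 and Mrpl46 were the only genes of the 77 whose treated arrays were all below the controls in both experiments (2.6%, against 0.808% of all genes). Their changes were -0.38 ± 0.13 and -0.29 ± 0.10 (SE; limma, adjusted p = 0.135 and 0.137). Mrps26 had a change of -0.25, while Mrps34 and Mrps10 had changes of 0.20 each and Mrpl57 of 0.12. Mrps10 was the 1 gene higher in experiment 2 alone (0.39), or 1.3% of the 77 against 1.75% of all genes. With array weights 2 genes passed, Mrpl46 lower and Mrps10 higher, where 2.96% of all genes were lower and 4.77% higher. The shares of the calls with array weights and in experiment 2 alone were no more than those of all genes. The shares lower at an unadjusted p, and of genes with all treated arrays below the controls given above, were larger than those of all genes.

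Between 4 doses and 1 dose, 0 of 77 genes were called by limma (0.0451% of all genes lower, 0.276% higher). At an unadjusted p under 0.05 there were 3 lower and 0 higher (3.58% and 3.85% of all genes): Mrps5 (-0.21), Mrpl12 (-0.26) and Mrpl10 (-0.13). The smallest p among genes with a change above 0 was that of Mrpl57 (0.20 ± 0.10, SE; limma, adjusted p = 0.708), with Mrps30 (0.09) and Mrpl23 (0.10) after it. Standard errors of 0.06 to 0.20 across the 77 genes set the size of change that these groups could show.

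Set directly against Mstn-null muscle, the treated groups were higher. After 1 dose 45 of the 77 genes were higher and 0 lower (10.9% and 5.9% of all genes), and after 4 doses 32 were higher and 0 lower (11.4% and 8.75%). At an unadjusted p under 0.05 the lower counts were 0 for 1 dose and 1 for 4 doses, where 17.4% and 20.2% of all genes were lower. The median changes were 0.30 and 0.22, against -0.06 for all genes in both comparisons. Among all genes weighted to the same mean levels, 25.2% were higher after 1 dose and 25.1% after 4 doses, with a median of 0.09 in both. In bin 10, the brightest, 6 of 22 of these genes were higher after 4 doses, where 34.8% of all genes of the bin were; after 1 dose it was 10 of 22, beside 32.6%. Both comparisons share the Mstn-null arrays with each other and with the comparison to controls, so they are not independent of it.

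The treated groups are shown for Mrps33, whose order among the classes differed between the experiments. In experiment 1 it was at 6.89, 6.99 and 7.14 after 1 dose and at 5.97, 6.81 and 7.01 after 4 doses. In experiment 2 it was at 8.18, 8.22, 8.52, 8.61 and 8.92 after 1 dose and at 8.82, 8.85, 8.87, 9.02 and 9.11 after 4 doses. After 4 doses the arrays of experiment 2 at 9.02 and 9.11 lay above all controls, and the others lay in the range of controls. All 5 arrays were above all 8 Mstn-null arrays, whereas in experiment 1 a single treated array fell among the Mstn-null values. The change against Mstn-null was 1.13 ± 0.19 for 4 doses and 1.01 ± 0.19 for 1 dose (SE; limma, adjusted p = 0.00015 and 0.000435). Mrpl50 differed by 0.93 and 1.03, Mrps23 by 0.59 and 0.72, and Mrpl9 by 0.59 and 0.72, for 4 doses and 1 dose. Mrps2, Mrps16 and Mrps18b had the smallest p among genes with lower values after 4 doses, and Mrps2, Mrpl38 and Mrps16 after 1 dose, and none of them passed. Without Mstn-null arrays 6, 7 and 8 of experiment 2, 22 genes were called for 1 dose and 19 for 4 doses, all higher (5.42% and 5.32% of all genes). With the range as a covariate these counts were 7 and 2 (1.31% and 1.1% of all genes higher).

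The other machinery of mitochondrial gene expression was described from fixed lists in Mstn-null against control muscle. Among all genes, 16.4% were lower and 25.4% higher there. This background holds genes of every level, and the lists were not matched for mean level. In bins 7 to 10 of mean level, 23.5%, 31%, 38.6% and 43.6% of all genes were lower. Of 4 measured mitoribosome proteins with other names, 3 were lower: Chchd1 (-1.04), Ptcd3 (-0.44) and Dap3 (-0.43). Gadd45gip1 had a change of -0.06 and was not called. Of 16 translation factors, 14 were lower and 0 higher, with a median of -0.43. They included the elongation factor Gfm1 (-0.73), Lrpprc and Slirp, partners that stabilise mitochondrial mRNA (-0.71 and -1.20), and Letm1, an inner-membrane protein (-0.42). Of 19 genes for charging mitochondrial tRNAs, 9 were lower and 0 higher, among them Gatc (-0.65), Qrsl1 (-0.52), Hars2 (-0.42) and Iars2 (-0.39).

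Of 27 genes for ribosome assembly and rRNA modification, 15 were lower and 0 higher. Gtpbp10 and Mtg1, GTPases of large-subunit assembly, changed by -1.05 and -0.62, Mterf3 by -0.69, and Afg3l2, a subunit of the protease that processes Mrpl32, by -0.44. Of 15 genes for mitochondrial DNA and transcription, 9 were lower and 0 higher. Tfam, which packages mitochondrial DNA and helps to start its transcription, changed by -1.11. The tRNA-processing protein Trmt10c changed by -0.85, the single-strand binding protein Ssbp1 by -0.83 and Mterf2 by -0.78. Of 18 regulators of mitochondrial biogenesis, 5 were lower and 2 higher, led by the nuclear receptors Esrrg (-0.75) and Ppara (-0.73), with Gabpa, the DNA-binding subunit of GABP, at -0.52 and Esrrb at -0.23. With the range as a covariate 2 of these regulators, 1 translation factor and 0 genes of the other 4 lists were lower (1.36% of all genes).

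Against control, 1 of the 99 genes of the 6 lists was lower after 1 dose and 5 after 4 doses, and 0 were higher. Among all genes 0.572% and 1.23% were lower. At an unadjusted p under 0.05 the lists had 4 lower and 3 higher after 1 dose (4.05% and 7.87% of all genes). After 4 doses they had 19 lower and 1 higher (6.04% and 8.6% of all genes). After 1 dose only Ppara was lower (-0.51; limma, adjusted p = 0.00871) among the genes of all 6 lists. After 4 doses Ppara (-0.58), Esrrg (-0.57) and Esrrb (-0.34) were lower, as were Letm1 (-0.34) and the assembly factor Rcc1l (-0.32). Between 4 doses and 1 dose, 0 of the 99 genes of the 6 lists were called by limma. At an unadjusted p under 0.05, 12 were lower and 2 higher, where 3.58% and 3.85% of all genes were. Of the 5 genes named, Rcc1l had the smallest p there (-0.32; limma, adjusted p = 0.0673, and 0.0314 after cyclic loess). Set directly against Mstn-null muscle, none of these 5 genes passed after 4 doses: the changes were 0.18 for Esrrg, 0.16 for Ppara, -0.11 for Esrrb, 0.08 for Letm1 and -0.08 for Rcc1l (limma, adjusted p from 0.172 to 0.429).

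**Figure D5:**
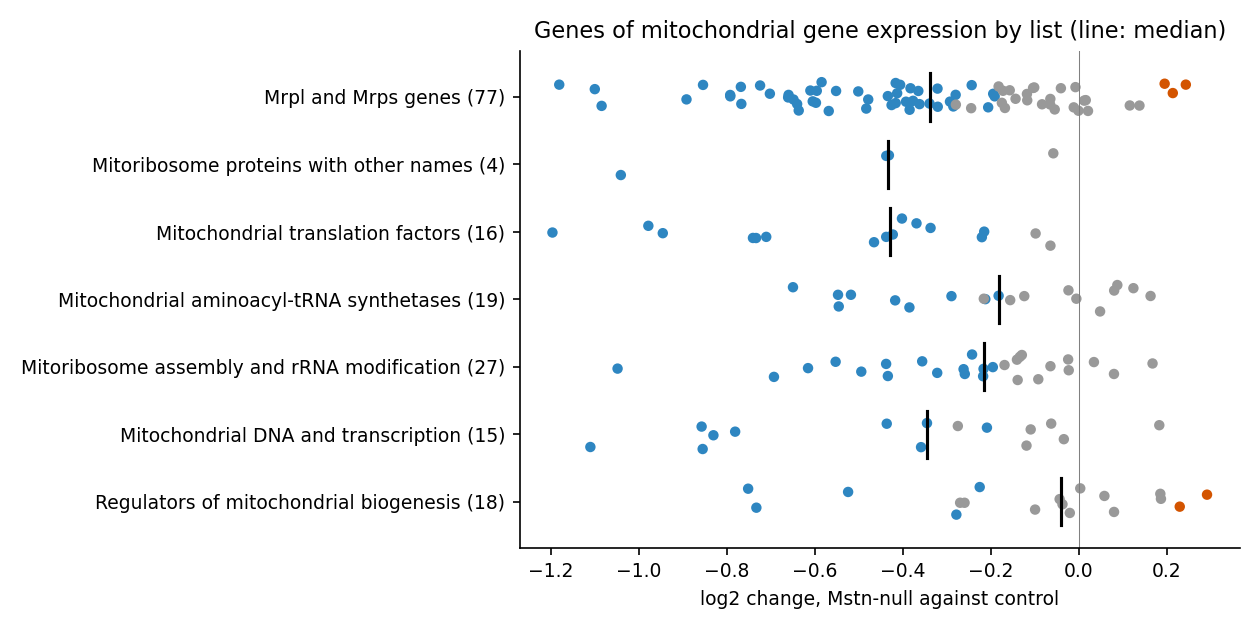
Log2 change in Mstn-null against control muscle for each measured gene (points; blue lower, orange higher, grey not called) of the ribosomal protein genes and 6 lists, with the number of genes in brackets and the median as a vertical line. Medians run from -0.43 for translation factors and for mitoribosome proteins with other names to -0.04 for regulators of biogenesis.

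Markers of fibre and cell types moved with the classes. Among all genes, 16.4% were lower and 25.4% higher in Mstn-null muscle, and 1.23% and 1.91% after 4 doses. After cyclic loess it was 15.6% and 11.8% in Mstn-null muscle. With the range as a covariate 1.36% were lower there and 1.09% after 4 doses. The marker lists were not matched for mean level. In bins 3 to 7 of mean level, 37.2%, 44%, 43.7%, 34.9% and 22.4% of all genes were higher in Mstn-null muscle. All 10 slow-fibre genes were lower in Mstn-null muscle (median change -2.22), including Myoz2 (-2.55) and Casq2 (-1.66), and the mean level of the list in experiment 2 was 9.91 to 10.55 in controls and 6.77 to 9.38 in Mstn-null arrays. After 4 doses 9 of these 10 were lower (median -1.49, with levels from 7.74 to 9.57 in experiment 2). Of the 77 ribosomal protein genes 0 were called after 4 doses. After 1 dose 0 of the slow-fibre genes were called (median -0.93). With the range as a covariate, 2 of the 10 slow-fibre genes were lower in Mstn-null muscle (median -1.26) and 3 after 4 doses. Of 12 markers of skeletal muscle fibres, mostly fast-fibre forms, 3 were lower and 1 higher in Mstn-null muscle. Levels of the list ran from 13.04 to 13.52 there, against 13.41 to 13.54 in controls of experiment 2. After cyclic loess the same list had 1 lower and 5 higher, so the balance of its calls depends on the scaling. Of 10 endothelial markers 5 were lower (7.37 to 8.29 against 8.10 to 8.17), of 12 macrophage and myeloid markers 7 were higher (6.66 to 7.25 against 6.25 to 6.53), and of 7 adipocyte markers 1 was lower (6.76 to 8.59 against 7.53 to 8.78), with levels given for experiment 2. Of 2 erythroid markers 1 was higher (6.57 to 7.79 against 6.40 to 6.63). With the range as a covariate, 1 endothelial marker and 0 adipocyte markers were lower in Mstn-null muscle. In experiment 1 the macrophage list overlapped, at 4.47 to 4.78 in Mstn-null arrays and 4.45 to 5.03 in controls. After cyclic loess 2 of its 12 markers were higher in Mstn-null muscle. The rise was not particular to Mstn-null muscle: after 4 doses 7 of the 12 were higher than in controls, and 8 after cyclic loess. The median change of the list was 0.54 after 4 doses and 0.30 in Mstn-null muscle. After 1 dose 0 of the 12 were called (median 0.34). The part of these shifts in the fall of the ribosomal protein genes was not tested.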

How the data were processed

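RNA of each quadriceps was measured on Affymetrix arrays. The authors deposited log2 values, and the submitters' processing notes name RMA, R 2.11.1 and limma 3.4.4. No source used here states if the experiments shared 1 normalization. Of 35556 probe-set rows, 21789 had 1 gene symbol, 1621 several and 12146 none; rows with 1 symbol gave 19938 genes. The deposited log2 values were fitted without further scaling with limma 3.58.1 in R 4.3.3, using 35 arrays and terms for class and for experiment, with Benjamini-Hochberg adjustment over all genes (threshold 0.05). The number of arrays limits the precision, and where nothing shows separate animals p-values measure only the spread between samples. The members and gene lists were chosen with earlier results of these data known. Genes were named by rule: those with the smallest p and the largest changes in each direction of a comparison, the brightest and dimmest in controls, those that differed between experiments, those whose names mislead, and up to 4 genes by p of each list. Mrps18c, Rcc1l, Mrps11 beside Mrpl46 and the members of small counts were named after their values were seen. Alternatives were other normalizations, the array's interquartile range as a covariate, array weights, a level filter, the mean of a gene's probe sets, each experiment alone, a replicate block and leaving out arrays. On simulated data for the Mstn-null comparison over 19938 genes, 92% of genes changed by 0.5 and 100% of those changed by 1 (log2) were called. There were 12 false calls. The simulated noise was independent between genes, had the same spread in all classes and held no shift in array range. The real arrays differ in these points, so the shares called cannot be carried over to them.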

Additional observations from a re-analysis of the deposited data

Results flagged for a closer look

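In 6 of 144 groups of 5 or 8 arrays examined for the named genes, 1 array lay far from the others of its group (4.17%; chance gives about 1 in 20). Mrps30 was 7.03 in control replicate 5 of experiment 2, with the nearest array at 7.28, and 6.93 in replicate 3 after 4 doses, with the nearest at 7.37. Mrpl13 was 7.57 in replicate 3 after 4 doses (nearest 7.89) and 8.34 in replicate 3 after 1 dose (nearest 7.87). Mrpl10 was 8.19 in replicate 5 after 1 dose (nearest 8.48). Mrpl41 was 8.60 in Mstn-null replicate 5 (nearest 7.95), the array with the highest mean over the 77 genes in its class. The change of Mrpl32 in Mstn-null muscle differed between the experiments by -1.28 (log2, experiment 2 minus experiment 1).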

How the results depend on the processing

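In Mstn-null muscle 52 genes were called in all, and 46 to 52 when 1 array was left out; 44 were lower whichever array was left out, and 38 were lower under all 3 other normalizations. The count was 5 with the array range as a covariate and 4 in experiment 1 alone, which has fewer arrays. For 4 doses against Mstn-null the count was 2 with the range, 0 in experiment 1 alone, 15 with a replicate block and 19 without Mstn-null arrays 6, 7 and 8, and it ran from 23 (without replicate 1 after 4 doses of experiment 2) to 44 (without replicate 3 after 4 doses of experiment 1). For 1 dose against Mstn-null it was 7, 3, 19 and 22 under the same settings and ran from 32 to 47. In experiment 1 alone, 0.01% of all genes were lower and 0.00502% higher for 4 doses against Mstn-null, so few calls were possible there. For 1 dose it was 0.396% and 1.61%. With the replicate block 1.89% of all genes were lower and 4.19% higher for 4 doses, and 1.74% and 4.5% for 1 dose. Against control, 4 doses gave 1 gene in experiment 2 alone and 2 with array weights, and 1 dose gave 2 with array weights; both stayed at 0 when 1 array was left out. Genes that differed between the experiments in Mstn-null muscle numbered 0 with centred medians, 4 among genes at or above the median level, 7 with array weights and 2 without arrays 6, 7 and 8, and 0 to 6 with 1 array left out; array weights gave 1 for 1 dose and 4 for 4 doses. With the range as a covariate the sign turned for Mrps27 (0.028), Mrps18a (0.000552), Emcn (0.023) and Slc4a1 (-0.019). In experiment 1 alone it turned for Mrps2 (-0.035), Mrpl32 (0.23), Ptcd3 (0.25), Itgam (-0.088), Csf1r (-0.066) and Adgre1 (-0.15). The cause was not tested. Replicate numbers did not pair the arrays: of 48 same-numbered pairs 18 had a correlation over 0.1 (from -0.60 to 0.41). With the replicate block 39 genes were called in Mstn-null muscle, where 11.8% of all genes were lower and 13.2% higher.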
